A study of Mus musculus with 4 samples.

Results

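The genes described are the Toll-like receptors Tlr2, Tlr3, Tlr4, Tlr6, Tlr7, Tlr8, Tlr9 and Tlr13, the co-receptor Cd14 and the adaptor Myd88. They were taken by gene symbol, and all 10 were found among the 27998 genes of the 4 count matrices. Each matrix is a droplet-based 3′ single-cell RNA-seq library of CD45-enriched cells, leukocytes for the most part, taken from the tibialis anterior (shin) muscle of male C57BL/6 mice aged 8 to 12 weeks. All mice carried the Bach1 fl/fl alleles, in which loxP sites flank exon 4, and all muscles were injured with cardiotoxin, a snake venom toxin that kills muscle fibres. Cells were collected 2 or 4 days post-injury (dpi2, dpi4). Control mice were Bach1 fl/fl, and KO mice were Bach1 fl/fl Lyz2-Cre, in which Cre recombinase is driven from the Lyz2 locus of myeloid cells. Each of the 4 groups is 1 library, so no difference has a replicate check, no test between groups was made, and every interval given covers counting error only.

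Toll-like receptors are membrane proteins that recognise molecules of microbes and of damaged cells. Tlr2, Tlr4 and Tlr6 act at the cell surface, where Tlr2 pairs with Tlr6 or Tlr1 to bind lipoproteins and Tlr4 binds lipopolysaccharide together with Ly96. Cd14 hands ligands to Tlr4 and Tlr2. Tlr3, Tlr7, Tlr8, Tlr9 and Tlr13 act in endosomes and recognise nucleic acids, namely double-stranded RNA (Tlr3), single-stranded RNA (Tlr7 and Tlr8), unmethylated CpG DNA (Tlr9) and bacterial ribosomal RNA (Tlr13, a receptor of rodents and not of humans). Myd88 couples all of them except Tlr3 to NF-kB and to the induction of cytokines. BACH1 is a heme-sensitive repressor that binds antioxidant response elements, Hmox1 being its best-known target.

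Promoter windows of 250 bases before the RefSeq start (GRCm38.p6) were read for 7 of the genes, and the 3 windows that hold no annotated exon of their gene are shown to let the letters be seen beside the levels. Capitals mark matches, on either strand, to the AP-1 element TGANTCA, the antioxidant response element core TGANNNNGC or the interferon response element core GAAANNGAA. The Tlr6 window precedes the more downstream of its 2 RefSeq starts and lies within the gene, outside its annotated exons.

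Tlr6, chr5:64959167-64959416 (minus strand): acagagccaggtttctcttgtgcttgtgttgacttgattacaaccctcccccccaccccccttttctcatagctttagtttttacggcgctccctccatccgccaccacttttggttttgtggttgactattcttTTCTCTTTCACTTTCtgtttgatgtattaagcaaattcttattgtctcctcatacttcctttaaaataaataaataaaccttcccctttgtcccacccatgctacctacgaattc
Tlr8, chrX:167264330-167264579 (minus strand): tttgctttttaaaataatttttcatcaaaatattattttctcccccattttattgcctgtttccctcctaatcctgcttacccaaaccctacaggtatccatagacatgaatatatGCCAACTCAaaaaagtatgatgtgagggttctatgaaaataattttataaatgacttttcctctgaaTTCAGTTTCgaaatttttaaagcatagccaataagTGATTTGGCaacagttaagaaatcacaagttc
Tlr9, chr9:106222348-106222597 (plus strand): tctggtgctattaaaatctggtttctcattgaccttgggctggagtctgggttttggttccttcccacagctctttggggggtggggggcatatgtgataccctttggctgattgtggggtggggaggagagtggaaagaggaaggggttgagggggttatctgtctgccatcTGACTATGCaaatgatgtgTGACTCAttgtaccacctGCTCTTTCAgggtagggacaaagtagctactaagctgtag

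The Tlr9 window held 1 AP-1 element and 2 antioxidant response element cores, the Tlr8 window held 2 of the latter and 1 interferon response element core, and the Tlr6 window held 2 overlapping interferon response element cores. Of the other 5 of the 8 windows read, that of Myd88 held 1 interferon core, and those of Tlr2, Tlr3, Tlr13 and the other Tlr6 start held no match. The AP-1 letters occurred in 6.75%, the antioxidant core in 35.2% and the interferon core in 7.13% of all 32851 promoter windows of this length. A match describes letters and not a bound site.

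The libraries held 4177 to 6602 barcodes and 57010520 to 80228489 UMIs (unique molecular identifiers, each counting 1 captured transcript), and 3433 to 5721 cells per library were kept. Between 2 and 14 barcodes were shared by any pair of libraries. The level of Bach1 did not follow the labels. In macrophages it stood at 123 CPM (the gene's UMIs over all UMIs of the class, times 1000000) in the control and 142 CPM in the KO-labelled library at dpi2, and at 216 and 230 CPM at dpi4. The 3′ tags need not lie in the deleted exon, so this level does not check the deletion. Lyz2, whose locus carries the Cre, followed the labels, with 8134 CPM and 18288 CPM in control macrophages and 12.9 CPM and 23.8 CPM in KO-labelled ones. The libraries thus differ in Lyz2 level as well as in Bach1 genotype, and the KO-labelled to control ratios below cannot tell these apart. Hmox1 stood at 686 and 496 CPM in control macrophages and at 10437 and 7475 CPM in KO-labelled ones. The libraries are therefore called labelled KO throughout.

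Cells were named from marker genes after clustering, with the receptors and the pathway lists kept out of the genes used. Macrophages (1840, 1028, 2976 and 2595 cells in control dpi2, KO-labelled dpi2, control dpi4 and KO-labelled dpi4, the order kept below), monocytes (2609, 985, 45 and 60 cells), neutrophils (627, 823, 128 and 35 cells) and type 2 conventional dendritic cells (cDC2, 268, 202, 273 and 306 cells) gave most UMIs of these genes. A change in a class can come from fewer cells of one state or from less RNA per cell, and the class sums do not tell these apart. Unnamed cells, from 2 shallow clusters, numbered 171, 531, 67 and 42, and the larger cluster was nearest to neutrophils in its markers. At dpi4 a class named muscle cell held 413 control and 54 KO-labelled cells. Its summed macrophage markers stood at 37497 and 14430 CPM, against 38871 and 32150 CPM in macrophages. Its cells are not counted among the macrophages, and their part in the dpi4 macrophage ratios was not tested. The libraries shared some macrophage clusters and differed in others. That led by Pdpn and Hmga2 held 1191 control and 133 KO-labelled cells at dpi2, and at dpi4 that led by Slc40a1 and Vcam1 held 45 and 1132 and that led by Sepp1 and Lyz2 1216 and 198. Clusters shared more evenly were that led by Gja1, Cd163 and Mrc1 at dpi2 (428 and 304) and that led by Txnip, Slc40a1 and Pltp at dpi4 (555 and 572). Among monocytes at dpi2, the cluster led by Plac8, Ly6c2 and Cxcl10 held 1492 control and 191 KO-labelled cells, and that led by Vcan and Dmkn 77 and 653. Ratios of the class sums therefore compare these make-ups as well. Every marker of the macrophage, monocyte, neutrophil and cDC2 lists was detected in its own class in all 4 libraries.

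**Figure D1:**
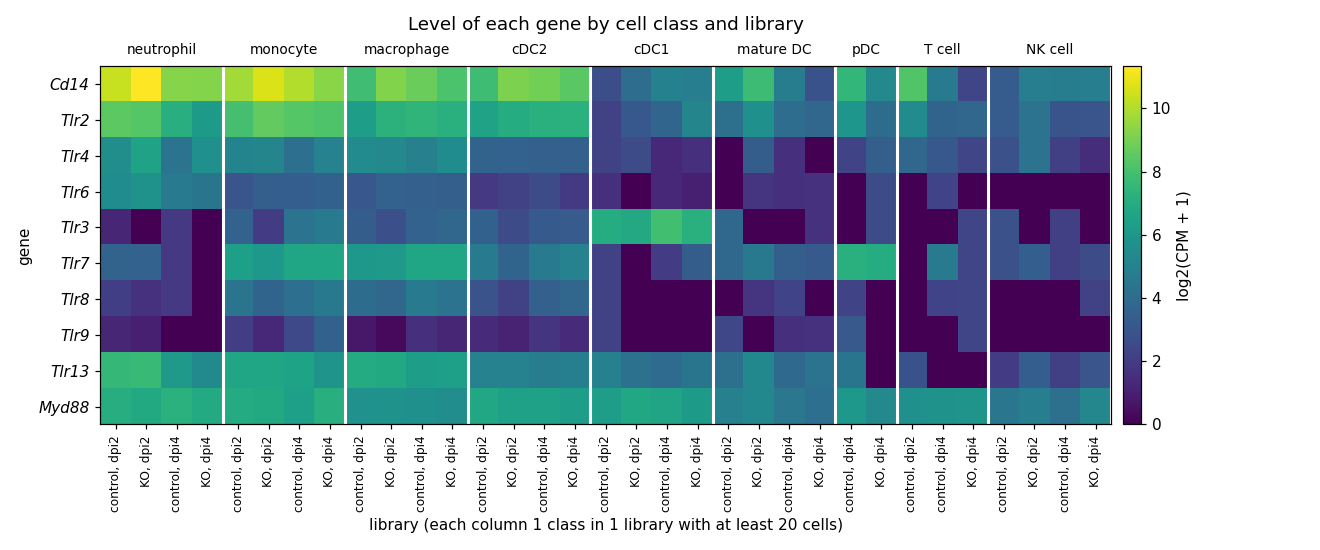
Colour gives log2(CPM + 1) of each gene (rows) in each of 9 named leukocyte classes and library with at least 20 cells (columns, with KO standing for the library labelled KO). Tlr3 is brightest in cDC1, Tlr7 in pDC, monocytes and macrophages, and Tlr6 in neutrophils, and colours are to be compared within a row.

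The distribution of each gene over leukocyte classes was read from the median CPM over the libraries with at least 20 cells, and ranges overlapped for several genes. Cd14 was highest in neutrophils (median 970 CPM, range 595 to 2578) and monocytes (949 CPM, 631 to 1679), whose ranges overlapped, and the monocyte range lay above that of cDC2 (417 CPM, 223 to 554), the next in order. Macrophages followed at 353 CPM (228 to 575) and overlapped cDC2. In NK cells Cd14 stood at 8.98 to 28.1 CPM and in cDC1 at 5.64 to 30.9 CPM.

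Tlr2 had medians of 306 CPM in monocytes, 230 CPM in neutrophils, 150 CPM in macrophages and 136 CPM in cDC2, and each range overlapped the next. Tlr4 stood at 48.8 CPM in neutrophils, 41.2 CPM in macrophages and 32.6 CPM in monocytes, with overlapping ranges, against 10.0 to 11.3 CPM in cDC2. Tlr6 ranged higher in neutrophils (20.2 to 54.2 CPM) than in macrophages (7.56 to 10.7 CPM) in every library, and its ranges in macrophages and monocytes overlapped. Its neighbour Tlr1 is a close copy, so reads that fit both may be missing from either count. The unnamed cells of the KO-labelled dpi2 library reached 119 CPM of Tlr6 (232 UMIs), against 30.0 CPM in the control (16 UMIs), and the cluster nearest to neutrophils made up 486 of 531 and 89 of 171 of these cells.

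Among the endosomal receptors, Tlr3 was highest in type 1 conventional dendritic cells (cDC1, which take up dying cells and cross-present antigen). It stood at 128, 114, 241 and 144 CPM there, above every other class with at least 20 cells in 2 or more libraries, of which endothelial cells came next at 30.7 and 33.4 CPM. Tlr7 was highest in plasmacytoid dendritic cells (pDC, the main source of type I interferon), at 129 and 146 CPM in the dpi4 libraries, the 2 with at least 20 such cells, and stood at 64.8 to 105 CPM in monocytes and 65.3 to 105 CPM in macrophages. Tlr13 was found in neutrophils (40.3 to 201 CPM), macrophages (78.1 to 125 CPM) and monocytes (56.4 to 104 CPM), with overlapping ranges. Tlr8 was found mainly in monocytes and macrophages, at 11.6 to 25.1 CPM. Tlr9 was sparse everywhere, with a median of 3.96 CPM in monocytes and 363 UMIs over all profiles of class and library used for the correlations below. Myd88 was broad, at 118 to 150 CPM in neutrophils, 84.5 to 142 CPM in monocytes, 79.0 to 110 CPM in cDC2 and 46.7 to 54.1 CPM in macrophages.

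Levels of the KO-labelled and control libraries were then compared within each class. A gene was counted past the size rule when its ratio was at least 2-fold either way, its exact conditional 95% interval did not include 1, and both libraries together gave 50 UMIs or more. Cd14 lies on chromosome 18 (18:36725067-36726798, mm10, minus strand). In macrophages its level was 228 CPM in the control and 575 CPM in the KO-labelled library at dpi2, and 424 CPM and 282 CPM at dpi4. The KO-labelled library was thus the highest of the 4 at dpi2 and lay below its control at dpi4. The ratio at dpi2 was 2.52 (95% interval 2.46 to 2.59), which passed the size rule, and at dpi4 it was 0.665 (0.651 to 0.680), which did not. With sub-clusters weighted as described below, the dpi2 ratio was 1.29 and did not pass. In macrophages at dpi2, Cd14 was the 1 gene of 9 scored that passed, where 4.54% of all genes scored did. At dpi4, 0 of 10 passed, against 2.37% of all genes.

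In monocytes Cd14 stood at 856, 1679, 1042 and 631 CPM, again higher in the KO-labelled library at dpi2 and lower at dpi4. The dpi2 ratio of 1.962 (1.93 to 2.0) stayed just short of 2-fold. It passed with no doublets removed (2.07) and with each library clustered by itself (2.03), and was 1.57 with sub-clusters weighted as described below. The dpi4 ratio was 0.606 (0.522 to 0.703) from 45 and 60 cells. In these dpi4 cells the summed macrophage markers stood at 11313 CPM in the control and 6564 CPM in the KO-labelled library and the neutrophil markers at 124 and 69.0 CPM, and their part was not tested. The monocytes of the dpi2 libraries lay mostly in different clusters, as given above. In monocytes at dpi2 the 2 genes of 10 scored that passed the rule were Tlr3 and Tlr9, both lower, where 4.46% of all genes passed. In cDC2, Cd14 stood at 223, 554, 490 and 343 CPM, and the ratio was 2.48 (2.28 to 2.71) early and 0.70 (0.652 to 0.752) late. Of 7 genes scored in cDC2 at dpi2, 1 passed upwards (Cd14) and 1 downwards (Tlr7), where 3.0% of all genes passed, and at dpi4 0 of 8 passed, where 1.19% did. The summed level of the 10 macrophage markers in cDC2 was 1095 and 1394 CPM at dpi2 and 6118 and 4164 CPM at dpi4, that of the 6 neutrophil markers 190 and 198 CPM and then 124 and 18.2 CPM, and their part in the Cd14 ratios was not tested. Mature dendritic cells, with 24 and 25 cells at dpi2, held 77.2 and 220 CPM of Cd14 then, and 27.3 and 6.22 CPM at dpi4. Their summed level of the 10 macrophage markers was 926, 2847, 3903 and 879 CPM, and that of the 6 neutrophil markers 25.7, 1111, 15.6 and 0 CPM, and the part of these cells' RNA in the Cd14 levels was not tested.

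In neutrophils Cd14 stood at 1314, 2578, 626 and 595 CPM. The dpi2 ratio was 1.961 (1.87 to 2.06) and the dpi4 ratio 0.95 (0.701 to 1.27). None of the 6 genes scored in neutrophils at dpi2 passed the rule (0 of 6), where 9.11% of all genes did. The median ratio of all genes was itself shifted in neutrophils, to -0.30 on the log2 scale, and with scaling factors that take this shift out (TMM) the ratios of Cd14 and Tlr4 became 2.52 and 2.53, so that 2 genes passed. The summed level of the 6 neutrophil markers in macrophages was 110 CPM in the control and 259 CPM in the KO-labelled library at dpi2, against 52761 and 72783 CPM in neutrophils themselves. In monocytes it was 209 and 435 CPM. The part of neutrophil RNA in the Cd14 ratios was not tested.

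**Figure D2:**
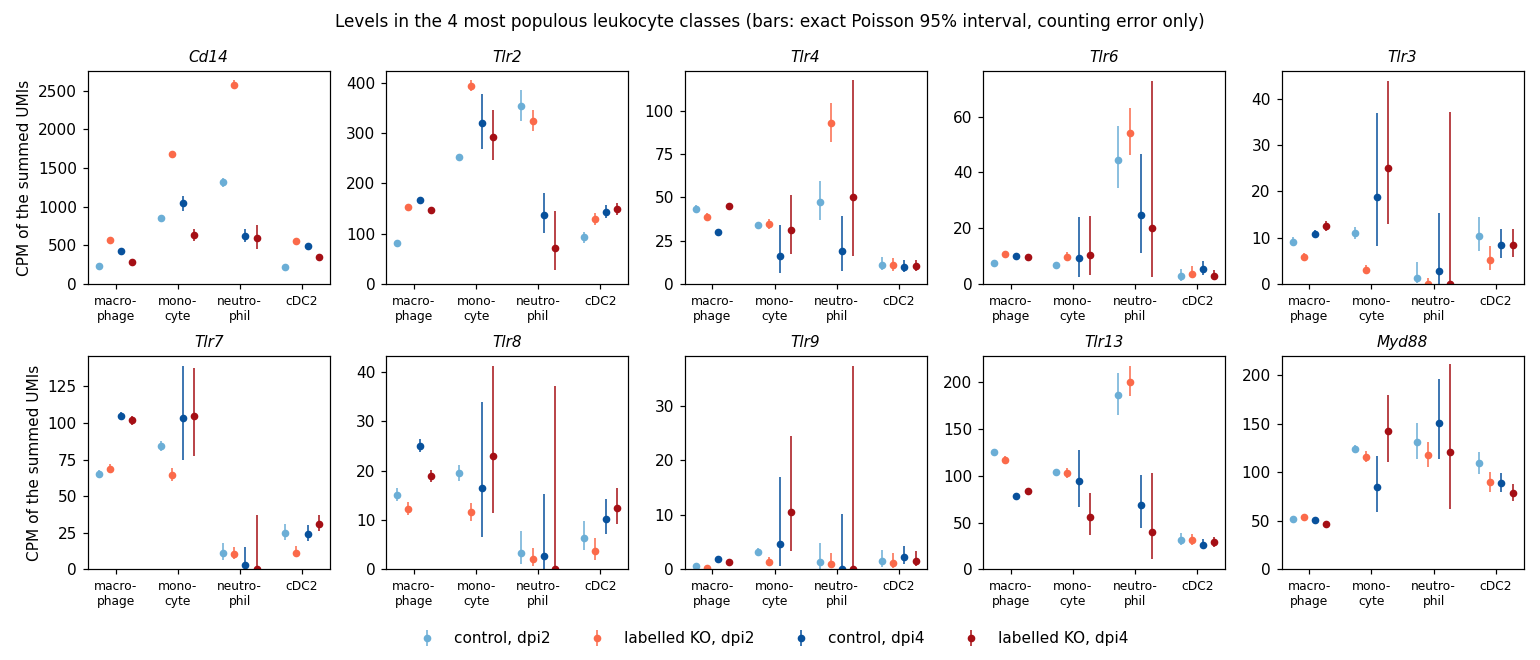
Each panel gives the CPM of 1 gene in 4 classes, with 1 point per library and the exact Poisson 95% interval as bar. Cd14 lies highest in the KO-labelled dpi2 library in all 4 classes, and the intervals widen in monocytes and neutrophils at dpi4, where few cells remained.

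Monocytes and macrophages were divided into 15 sub-clusters, numbered and described by their leading genes, to see whether Cd14 differed among like cells. At dpi2, 9 sub-clusters held at least 20 cells in both libraries. The Cd14 ratio was above 1 in 8 of them and below 1 in the other. In the sub-cluster led by F10, Slpi and Clec4e it was 744 CPM in the control and 1727 CPM in the KO-labelled library, a ratio of 2.32 (2.24 to 2.40). In the cycling sub-cluster led by Top2a it was 149 and 397 CPM, a ratio of 2.66 (2.41 to 2.94). These were the 2 sub-clusters past the size rule. In the sub-cluster led by Gja1, Cd163 and Mrc1, the last a scavenger receptor of tissue macrophages, it was 279 and 527 CPM, a ratio of 1.89.

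Smaller ratios were seen elsewhere, at 1.48 in the Fabp4 and Hmga2 sub-cluster, 1.39 in the Vcan, Il1b and Il6 sub-cluster, 1.22 in the Cxcl10 and Ly6c2 sub-cluster and 1.06 in the S100a9 and S100a8 sub-cluster. The Vcan, Il1b and Il6 sub-cluster held mostly cells of the KO-labelled library (34 control and 410 KO-labelled cells) and had high Cd14, at 1403 and 1956 CPM. With each sub-cluster given its mean share over both libraries as weight, the Cd14 ratio at dpi2 was 1.29 in macrophages and 1.57 in monocytes, and the rule was no longer met in macrophages. With monocytes and macrophages pooled it was 1.87.

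At dpi4, 8 sub-clusters could be compared, and the Cd14 ratio was below 1 in all 8, with an interval that held 1 in 2 of them. The ratio was 0.446 (0.392 to 0.506) in the sub-cluster led by C4b, Ccl8 and Clec10a, from 465 CPM in the control and 207 CPM in the KO-labelled library, and lay between 0.630 and 0.968 in the other 7. The sub-cluster led by Slc40a1, Vcam1 and Il18bp, held 336 CPM (1110 cells) against 353 CPM in the control (62 cells).

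**Figure D3:**
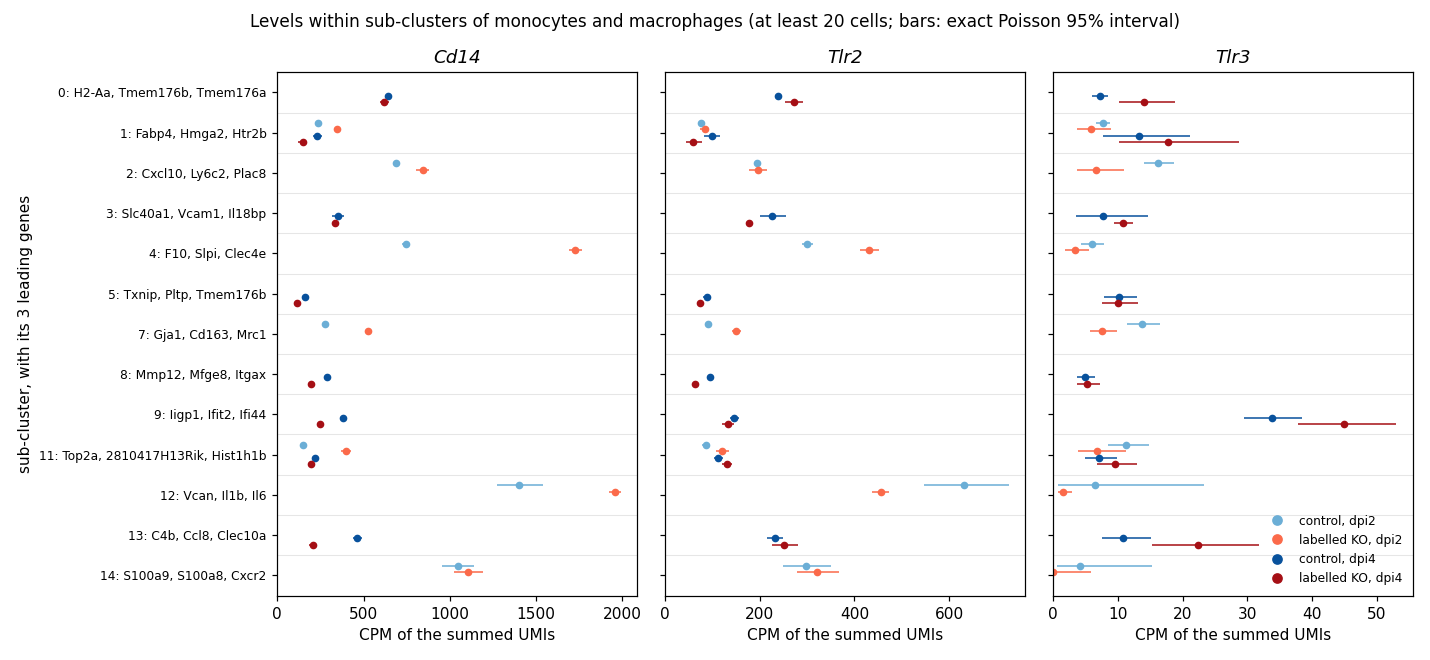
Points give the CPM of Cd14, Tlr2 and Tlr3 in sub-clusters of monocytes and macrophages with at least 20 cells (2 are not drawn), coloured by library, with the exact Poisson 95% interval. Cd14 of the F10, Slpi and Clec4e sub-cluster lies at 744 CPM in the control and 1727 CPM in the KO-labelled library at dpi2, and Tlr3 is highest in the Iigp1, Ifit2 and Ifi44 sub-cluster.

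Tlr2 (3:83836272-83841767, minus strand) stood at 80.8 CPM in control and 154 CPM in KO-labelled macrophages at dpi2, and at 168 and 146 CPM at dpi4. The control at dpi2 was the low library, and the other 3 lay close together. The dpi2 ratio of 1.90 (1.81 to 1.99) and the dpi4 ratio of 0.873 (0.846 to 0.901) were both short of the rule, though the former was 2.02 when each library was clustered by itself. In monocytes the levels were 253, 395, 319 and 293 CPM, with a dpi2 ratio of 1.56 (1.5 to 1.61). In neutrophils they were 354, 324, 137 and 70.6 CPM, and the dpi2 interval of 0.822 to 1.02 held 1. In cDC2 they were 92.5, 129, 143 and 148 CPM.

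Within sub-clusters the Tlr2 ratio at dpi2 ranged from 0.720 to 1.66, and 0 of 9 passed the rule. It was 1.66 (1.52 to 1.83) in the Gja1, Cd163 and Mrc1 sub-cluster, 1.44 (1.35 to 1.53) in the F10, Slpi and Clec4e sub-cluster and 1.39 (1.19 to 1.63) in the cycling one. It was 1.09 in the Fabp4 and Hmga2 sub-cluster and 1.0 in the Cxcl10 and Ly6c2 sub-cluster, with intervals that held 1. In the Vcan, Il1b and Il6 sub-cluster Tlr2 was lower in the KO-labelled library, at 632 CPM in the control (34 cells) and 455 CPM, a ratio of 0.720 (0.622 to 0.837). With the same weights over sub-clusters, the ratio was 1.06 in macrophages and 1.03 in monocytes.

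Tlr4 (4:66827584-66930284, plus strand) stood in macrophages at 43.5 and 38.9 CPM at dpi2, a ratio of 0.895 (0.829 to 0.966), and at 29.8 and 45.0 CPM at dpi4. The dpi4 ratio of 1.51 (1.42 to 1.61) was short of the rule, and was above 1 in 7 of the 8 sub-clusters compared. In monocytes at dpi2 Tlr4 stood at 33.8 and 34.6 CPM. In neutrophils at dpi2 it stood at 47.2 CPM (71 UMIs) and 92.8 CPM (274 UMIs), a ratio of 1.97 (1.51 to 2.59). Tlr6 (5:64952031-64960097, minus strand) had dpi2 ratios of 1.42 (1.21 to 1.68) in macrophages, from 7.56 and 10.7 CPM, and 1.43 (1.14 to 1.78) in monocytes, from 6.90 and 9.85 CPM. At dpi4 its macrophage ratio of 0.967 had an interval that held 1.

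Of the endosomal receptors, Tlr3 (8:45395665-45411080, minus strand) fell in monocytes at dpi2, from 11 CPM in the control (307 UMIs) to 3.07 CPM in the KO-labelled library (43 UMIs). The ratio was 0.279 (0.198 to 0.385), between monocytes of the unequal make-up given above, and with sub-clusters weighted by mean share it was 0.459. In macrophages it was 0.632 (0.522 to 0.762), from 9.15 and 5.78 CPM, and in cDC2 0.503 (0.268 to 0.916), from 34 and 18 UMIs. In cDC1, where Tlr3 was highest, the dpi2 interval of 0.598 to 1.33 held 1, with 34 and 20 cells, while at dpi4 the ratio was 0.595 (0.472 to 0.750), from 241 and 144 CPM. At dpi4 macrophages held 10.8 and 12.5 CPM.

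Tlr9 (9:106222598-106226883, plus strand) fell in the same monocytes, from 3.22 CPM (90 UMIs) to 1.43 CPM (20 UMIs), a ratio of 0.443 (0.259 to 0.726). Tlr8 (X:167242696-167264329, minus strand) went from 19.5 to 11.6 CPM there, a ratio of 0.594 (0.495 to 0.709), and Tlr7 (X:167304929-167330558, minus strand) from 84.5 to 64.8 CPM, a ratio of 0.767 (0.709 to 0.828), neither past the rule. In cDC2 Tlr7 fell from 24.9 CPM (82 UMIs) to 11.6 CPM (40 UMIs), a ratio of 0.464 (0.309 to 0.685), but it was 0.692 when each library was clustered by itself. Tlr13 (X:106143204-106160493, plus strand) had dpi2 ratios near 1, namely 0.934 in macrophages, 0.997 in monocytes and 0.987 in cDC2. In monocytes at dpi2, Tlr3, Tlr7, Tlr8 and Tlr9 thus had ratios below 1 and Cd14, Tlr2 and Tlr6 above 1. Tlr4 (1.02, 0.915 to 1.14) and Tlr13 had intervals that held 1, and Myd88 stood at 0.939 (0.885 to 0.997). All compare monocytes of the unequal make-up given above, and Tlr2 was 1.03 with sub-clusters weighted by mean share.

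Within sub-clusters, Tlr3 at dpi2 stood at 16.2 CPM in the control and 6.67 CPM in the KO-labelled library in the sub-cluster led by Cxcl10, Ly6c2 and Plac8, a ratio of 0.412 (0.226 to 0.697), and at 13.8 and 7.59 CPM in that led by Gja1, Cd163 and Mrc1, a ratio of 0.551. In the Fabp4 and Hmga2 sub-cluster the ratio was 0.769, with an interval of 0.465 to 1.21 that held 1. At dpi4 Tlr3 passed the rule upwards in the sub-cluster led by C4b, Ccl8 and Clec10a, at 10.8 CPM in the control (35 UMIs) and 22.4 CPM in the KO-labelled library (31 UMIs), a ratio of 2.07 (1.23 to 3.46). In that led by H2-Aa and Tmem176b the ratio was 1.96 (1.36 to 2.76). With the same weights over sub-clusters, the monocyte ratio of Tlr9 was 0.633 and no longer passed. Tlr9 did pass in the Cxcl10, Ly6c2 and Plac8 sub-cluster, the only one where it was scored at dpi2. Its ratio there was 0.206 (0.0243 to 0.783), from 51 UMIs in the control and 2 in the KO-labelled library. The highest Tlr3 among sub-clusters of at least 20 cells was in that led by Iigp1, Ifit2 and Ifi44, genes induced by interferon, at 33.7 and 44.9 CPM in the control and KO-labelled libraries at dpi4.

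**Figure D4:**
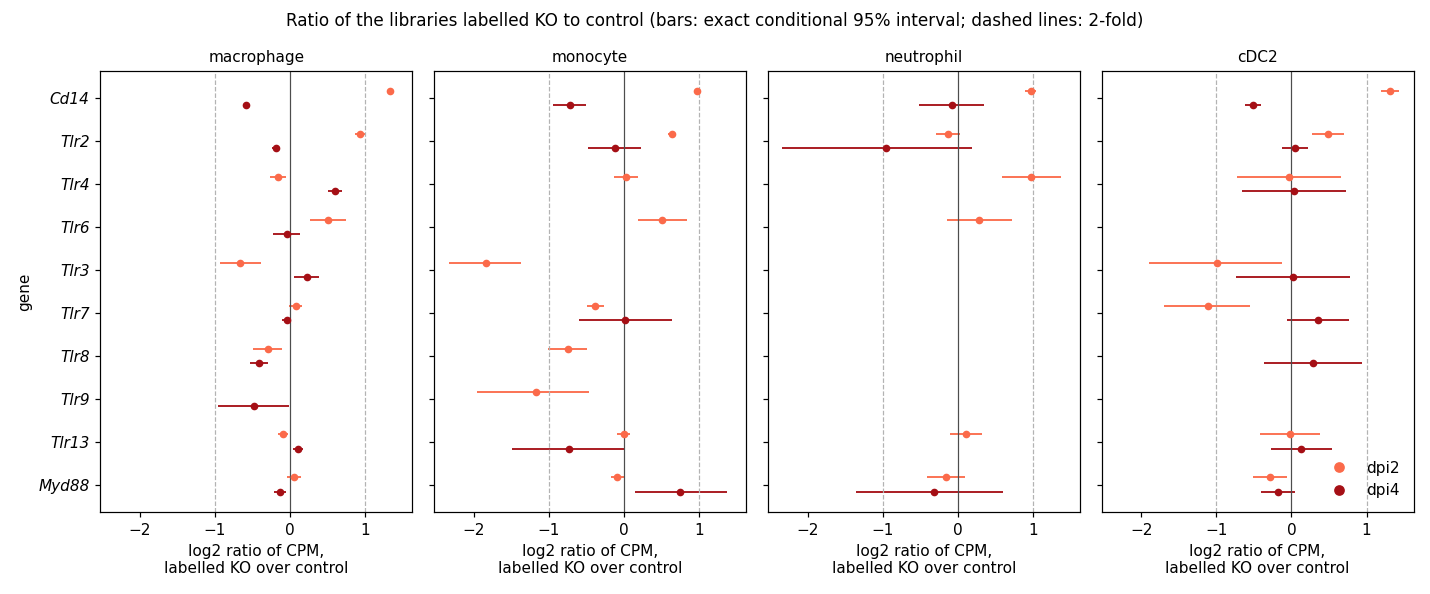
Points give the log2 ratio of CPM, labelled KO over control, for each scored gene at dpi2 (light) and dpi4 (dark) in 4 classes, with the exact conditional 95% interval, and dashed lines mark 2-fold. Cd14 lies right of 0 at dpi2 in all 4 classes and left of 0 at dpi4 in macrophages, monocytes and cDC2, and Tlr3 lies left of 0 at dpi2 in the 3 classes where it was scored.

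Myd88 (9:119335934-119341411, minus strand), the adaptor, differed little between libraries in macrophages. In macrophages it stood at 52.1, 54.1, 51.3 and 46.7 CPM, in monocytes at 124, 116, 84.5 and 142 CPM and in neutrophils at 132, 118, 150 and 121 CPM. Its ratios in these classes at dpi2 lay between 0.895 and 1.04, and that in cDC2 was 0.818 (0.701 to 0.955). In monocytes at dpi4 the ratio was 1.68 (1.11 to 2.59), from 36 and 68 UMIs.

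The comparison over time used the same libraries, so its ratios share them with those above. In control macrophages, from dpi2 to dpi4, Tlr2 rose 2.08-fold (1.99 to 2.16) and Tlr9 2.87-fold (1.82 to 4.68), the latter from 24 to 103 UMIs, and these were the 2 genes of 10 that passed, where 16% of all genes did. Cd14 (1.86), Tlr7 (1.61) and Tlr8 (1.66) had ratios above 1, and Tlr13 (0.625) and Tlr4 (0.685) below 1. With monocytes and macrophages pooled, Tlr2 (1.09) and Tlr9 (1.07) no longer passed and Cd14 turned to 0.861. Tlr2 was also short of the rule with no doublets removed (1.93), with a mitochondrial limit of 20% (1.98) and with sub-clusters weighted by mean share (1.30). Under that weighting Tlr4 turned to 1.12, and Cd14 (1.06), Tlr7 (1.03) and Tlr8 (1.03) lay near 1. In KO-labelled macrophages Tlr3 rose 2.17-fold (1.82 to 2.59) and Tlr9 5.58-fold (2.55 to 14.5, from 7 to 62 UMIs), while Cd14 fell to 0.490 of its dpi2 level (0.479 to 0.502), so that 3 of 10 passed, where 14.1% of all genes did. Tlr3 was 1.90 with sub-clusters weighted by mean share, and Cd14 0.507 with TMM scaling, both short of the rule. With monocytes and macrophages pooled, Tlr9 was 2.28 and Cd14 0.307, both past it. Tlr2 had a ratio of 0.954. Few sub-clusters held cells of both times, and those that did held 6.89% of control and 6.90% of KO-labelled macrophages at dpi4, so these ratios compare different states.

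In cDC2, Cd14 rose 2.20-fold (2.01 to 2.40) in the control, the 1 gene of 8 that passed, where 8.32% of all genes did, but it was 1.86 with no doublets removed. In the KO-labelled library Tlr7 rose 2.70-fold (1.87 to 3.96) and Tlr8 3.33-fold (1.78 to 6.70, from 13 to 49 UMIs), 2 of 8 genes, where 7.14% of all genes passed. With each library clustered by itself Tlr7 was 1.33 and did not pass. The part in these ratios of the macrophage markers, whose sums in cDC2 rose over the same interval as given above, was not tested. In control neutrophils 4 of 6 genes fell, where 15.6% of all genes passed. These were Tlr13 (0.367), Tlr2 (0.386), Tlr4 (0.406) and Cd14 (0.477), of which Cd14 was 0.565 with no doublets removed and did not pass. Over the same interval the summed level of the 6 neutrophil markers in these cells went from 52761 to 33612 CPM and that of the 10 macrophage markers from 582 to 3099 CPM, and their part in these ratios was not tested.

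The share of cells with at least 1 UMI was compared after each cell was thinned to 2000 UMIs, since median depth in named leukocyte classes ran from 2299 UMIs in control dpi2 neutrophils to 27024 UMIs in KO-labelled dpi2 macrophages. Cd14 was found in 30.4%, 54.5%, 45.2% and 35.6% of macrophages, 63.6%, 82.9%, 75.0% and 53.3% of monocytes and 49.6%, 63.3%, 25.4% and 25% of neutrophils. Without thinning, the macrophage shares were 79.8%, 93.0%, 87.0% and 76.8%. In NK cells, which should lack it, the thinned shares were 0%, 4.55%, 5.56% and 1.27%, at median depths of 3951 to 6284 UMIs. In T cells Cd14 stood at 307 CPM in the control dpi2 library (49 UMIs over 30 cells), with 10.3% of thinned cells holding a UMI, and at 4.13 to 23.4 CPM in the other libraries with at least 20 such cells. In macrophages and monocytes the thinned shares of Cd14 differed between libraries in the same direction as the CPM.

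Tlr2 was found in 14.3%, 26.2%, 28.3% and 25.4% of thinned macrophages and 35.7%, 50.1%, 36.4% and 35.0% of monocytes, against 0% to 9.09% of NK cells, the highest from 22 cells. Tlr7 was found in 11.6% to 19.1% of macrophages and Tlr13 in 13.5% to 23.2%. Thinned shares of Tlr3, Tlr6, Tlr8 and Tlr9 in macrophages lay at or below 5.23%, and no order was read from them.

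**Figure D5:**
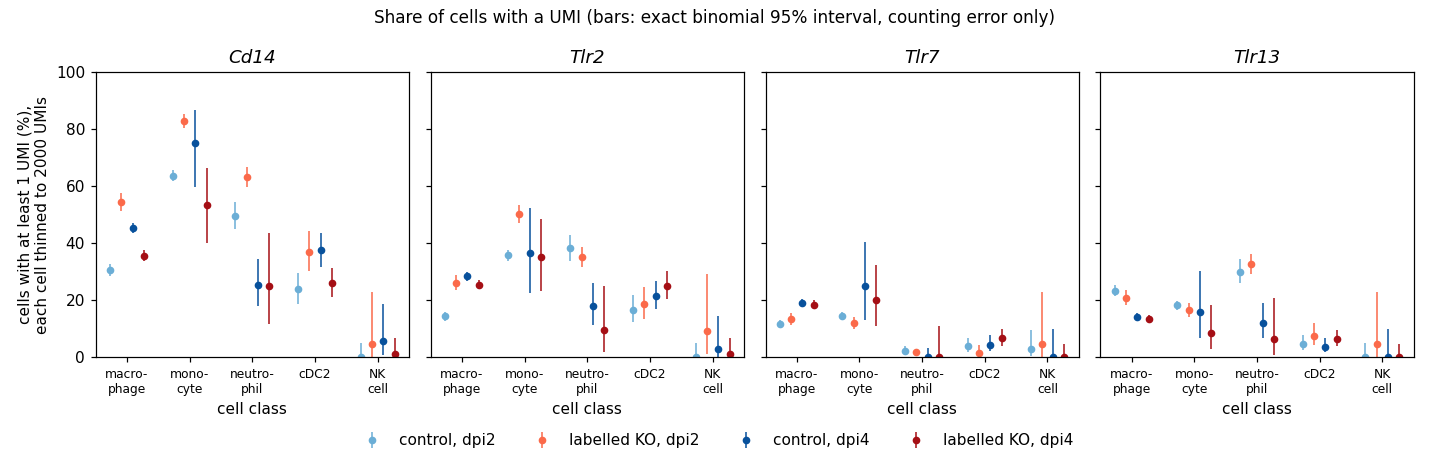
Points give the percentage of cells with at least 1 UMI of Cd14, Tlr2, Tlr7 or Tlr13 after thinning to 2000 UMIs per cell, by class and library, with the exact binomial 95% interval. Cd14 reaches 82.9% in KO-labelled dpi2 monocytes, and NK cells lie at 5.56% or below for it.

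Other genes of the pathway were read from a list of 57. In macrophages at dpi2, 52 were scored, of which 5 were higher in the KO-labelled library and 2 lower past the rule, where 4.54% of all genes passed, with a median log2 ratio of 0.10 against -0.02 over all genes. In monocytes, 51 were scored, 4 were higher and 2 lower, where 4.46% of all genes passed. None of the 9 accessory and chaperone proteins and none of the 4 adaptors passed in either class. Ly96, Unc93b1, which carries the endosomal receptors out of the endoplasmic reticulum, and Ticam1, the adaptor of Tlr3, are among these.

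Of the 7 genes scored that the receptors are known to induce, 3 were higher and 1 lower in each of these classes, where 4.54% (macrophages) and 4.46% (monocytes) of all genes passed. Il1b, a pyrogenic cytokine, stood at 117 and 500 CPM in macrophages, a ratio of 4.26 (4.12 to 4.41), and at 1645 and 4643 CPM in monocytes, a ratio of 2.82. Il6 stood at 0.459 and 6.77 CPM in macrophages and 30.0 and 102 CPM in monocytes, ratios of 14.7 and 3.39. Ptgs2, the inducible cyclooxygenase, had ratios of 3.14 and 3.15. Il1b, Il6 and Ptgs2 are among the leading genes of the monocyte cluster led by Vcan and Dmkn. That cluster held 77 control and 653 KO-labelled cells at dpi2. The summed neutrophil markers given above were also higher in the KO-labelled library in both classes. The part of either in these ratios was not tested, and no sub-cluster ratio was made for these genes. The feedback inhibitor Tnfaip3 (A20) passed in macrophages, at 204 and 412 CPM (2.02).

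Ikbkg, the regulatory subunit of the IkB kinase, had ratios of 2.36 in macrophages, 3.70 in monocytes and 8.48 in neutrophils. Irf7, which drives interferon genes downstream of Tlr7 and Tlr9, was lower, at 178 and 60.6 CPM in macrophages (0.340) and 532 and 214 CPM in monocytes (0.402). Cxcl10, a chemokine induced by interferon, was lower as well, with ratios of 0.340 and 0.457. It is among the leading genes of the monocyte cluster that held 1492 control and 191 KO-labelled cells at dpi2. The part of this make-up in the Cxcl10 ratios was not tested. In neutrophils 2 of 44 scored genes were higher (Ikbkg and Ly96) and 3 lower (Irf7, Cxcl10 and Cd180), where 9.11% of all genes passed. In cDC2 1 of 50 was higher (Irak3) and 2 lower (Irf7 and Cxcl10), where 3.0% did. Ly96, Cd180 and Irak3 are named after their values were seen. At dpi4, 0 of 53 scored genes passed in macrophages, where 2.37% of all genes did.

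The genes most like each receptor were sought by the Pearson correlation of log2(CPM + 1) over 35 profiles of class and library, among 11878 genes. The profiles share libraries, so these values are descriptions. Cd14 and Tlr2 were each other's nearest gene (r = 0.942), followed for both by Pilra, an inhibitory receptor of myeloid cells (0.913 and 0.904). Tlr7 was nearest to Cybb, the catalytic subunit of the phagocyte NADPH oxidase (0.910), Tlr8 to Daglb (0.874) and Csf1r (0.865), Tlr13 to Emilin2 (0.884), Tlr6 to Msrb1 (0.883) and Tlr4 to Cd300lb (0.862). Tlr9 was nearest to Irf7 (0.713), followed by the interferon-induced Ifi27l2a (0.662) and Oas1g (0.654). Tlr3 was nearest to Myo9a (0.761), and Myd88 to Kdm7a (0.90).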

How the data were processed

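The UMI count matrices were deposited by the authors as made with Cell Ranger 6.1.2 on mm10, 1 matrix per library, with no normalization. The labels name a version 2 kit and the methods a version 3.1 kit, and which was used was not resolved here. Barcodes with a mitochondrial share of 10% or more or under 500 genes were removed, and so were the highest doublet scores (Scrublet) at 0.8% per 1000 cells. Cells of the 4 libraries were clustered together (scanpy 1.11.5, Leiden resolution 1, leidenalg 0.10.2) and named from marker lists. That a class needs 3 or more detected markers to compete for a name was decided after the clusters were seen. Counts were summed per class and library, scaled to CPM and given with exact Poisson, conditional binomial or Clopper-Pearson 95% intervals, which cover counting error only. With 1 library per group there is no test, and 100 or more cells in both libraries were asked of a comparison whose share of all genes past the rule is given. The ratio code was tested on simulated data. The genes and lists were chosen with earlier results of these data known. All 10 genes are named, with the pathway genes past the rule in macrophages or monocytes, 1 to 3 of the genes most like each and the library checks. Motif letters were searched in RefSeq promoter windows (GRCm38.p6), gene positions are from GENCODE on mm10, and Cd14 was not looked up there. Values of 2 sub-clusters are counted but not reported here.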

Additional observations from a re-analysis of the deposited data

Results flagged for a closer look

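The KO-labelled to control ratio lay on opposite sides of 1 at dpi2 and dpi4, with both counting intervals leaving out 1, for 8 pairs of gene and class. The difference between the time points was not tested, as each rests on 1 library per group. The dpi2 ratio divided by the dpi4 ratio was 3.79 for Cd14 in macrophages, 3.24 for Cd14 in monocytes and 3.54 for Cd14 in cDC2. It was 2.18 for Tlr2 in macrophages. The marker sums of macrophages and neutrophils that moved with Cd14 in monocytes and cDC2 are given with its levels. It was below 1 for Tlr3 (0.543), Tlr4 (0.592) and Tlr13 (0.870) in macrophages and for Myd88 in monocytes (0.558), where the dpi4 libraries held 45 and 60 such cells. With sub-clusters weighted by mean share, the macrophage ratios at dpi2 and dpi4 lay closer together, at 1.29 and 0.848 for Cd14 and at 1.06 and 0.952 for Tlr2. Under the same weights the dpi4 ratio of Tlr13 in macrophages was 0.943, on the same side of 1 as at dpi2, and the dpi2 ratio of Myd88 in monocytes was 1.12, on the side of the reported dpi4 ratio, which was not recomputed.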

How the results depend on the processing

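The number of genes past the size rule was recomputed under 12 alternatives, 1 of them added after the data were seen. Of 110 recomputed counts 82 stayed within 1.5 times the reported count and 28 moved, and of 927 single ratios 822 stayed within the reported interval and 105 moved. The settings of 1.5-fold, 20 UMIs and 200 UMIs change only the rule, so the 92 ratios counted under each could not move. Under the other settings, 30 of 48 moved with sub-clusters weighted by mean share and 18 of 39 with monocytes and macrophages pooled. With each library clustered by itself 29 of 92 moved, and with a minimum of 200 genes 0 of 92. None of the ratios past the rule turned direction (0 of them), while some of those short of it crossed 1, among them Cd14 (0.861 with monocytes and macrophages pooled) and Tlr4 (1.12 with sub-clusters weighted) in control macrophages over time. At 1.5-fold the count was 3 in macrophages, 5 in monocytes and 2 in neutrophils at dpi2, 2 in macrophages at dpi4, and over time 6 in control macrophages and 2 in control cDC2. With each library clustered by itself it was 2 in macrophages and 1 in cDC2 at dpi2, 1 in cDC2 at dpi4, 3 in control cDC2 over time and 1 in KO-labelled cDC2 over time. With sub-clusters weighted by mean share it was 0 in macrophages and 1 in monocytes at dpi2, and over time 0 in control and 1 in KO-labelled macrophages. With monocytes and macrophages pooled it was 2 at dpi2 and 0 in the control over time. At 200 UMIs it was 1 in monocytes and 1 in cDC2 at dpi2, and over time 1 in control macrophages and 0 in KO-labelled cDC2, and at 20 UMIs it was 2 in macrophages at dpi2. With no doublets removed it was 2 in neutrophils at dpi2, and over time 1 in control macrophages and 0 in control cDC2. With a mitochondrial limit of 20% it was 1 in control macrophages and 2 in control cDC2 over time, and with TMM scaling 2 in neutrophils at dpi2. The cause of these moves was not tested. No count moved with a minimum of 200 genes, at Leiden resolution 2 or with the unnamed cells nearest to neutrophils added to them. Shares thinned to 1000 UMIs are lower by construction. Depth limits Tlr9, with 363 UMIs, most. No paired analysis was possible because each group is 1 library and no test was made.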
